A study of Mus musculus and Homo sapiens with 27 samples.

Results

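Replication-dependent histone mRNAs were followed in MC38, a mouse colon carcinoma cell line, through RNA labelling and capture. The genes were all those whose GENCODE M21 symbol starts with Hist1h, Hist2h, Hist3h or Hist4h and whose counts summed to at least 90 over the 9 MC38 12G libraries. Of 70 genes with such symbols, 56 met the threshold, out of 56691 features in the table. They comprised 5 H1, 13 H2A, 15 H2B, 10 H3 and 13 H4 genes. By cluster, 51 lay in Hist1h on chromosome 13, 4 in Hist2h on chromosome 3 and 1 in Hist4h on chromosome 6, and Hist3h had no member. The study applied a bioluminescence-driven proximity labelling method to cultured cells, and 27 samples are described. The cells stably carried an enzyme that the labels call LAP, located at the ERM, neither of which the labels spell out. Label_Enrich libraries held RNA of cells given furimazine, a luciferase substrate, at 50 µM and a compound named PA at 10 mM for between 15 and 60 min, joined to biotin azide by click chemistry and captured on streptavidin beads. NonLabel_Enrich libraries held captured RNA titled as not labelled. The sample annotation lists the same furimazine, PA and time for all groups, and how the treatment of these cells differed is not described apart from that title. Label_Input libraries held RNA of labelled cells set aside before the capture. Each group had 3 libraries from the same LAP line, and nothing in the labels tells whether its replicates came from separate cultures, so p-values cover the spread of these libraries, which may be technical.

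Histone proteins package DNA. A core of H2A, H2B, H3 and H4 is wrapped by DNA, and the linker histone H1 binds where the DNA enters and leaves that core. In mammals the bulk of these proteins comes from clustered, intronless genes that are transcribed during S phase. Their mRNAs are the known exception to polyadenylation: the 3′ end is cut behind a short hairpin, which the stem-loop binding protein Slbp holds and which takes the place of a poly(A) tail in translation and decay. Histone mRNAs are translated on ribosomes in the cytosol, and the proteins are carried to the nucleus by histone chaperones.

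The hairpin is the feature these mRNAs share, and the forms found among the members are printed here, each from the gene named, as DNA letters 5′ to 3′ on the gene's strand. Capitals mark the paired arms of the stem, and lower case marks the loop between them and the flanking bases.
Hist1h1e: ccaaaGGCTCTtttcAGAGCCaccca
Hist1h4d: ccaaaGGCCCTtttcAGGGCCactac
Hist1h3c: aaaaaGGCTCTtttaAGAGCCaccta
Hist2h4: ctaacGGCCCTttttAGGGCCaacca
Hist1h4j: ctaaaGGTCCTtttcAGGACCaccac
Hist1h3g: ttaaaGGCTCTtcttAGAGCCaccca
Hist1h4a: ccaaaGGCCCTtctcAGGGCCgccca
Hist2h2ac: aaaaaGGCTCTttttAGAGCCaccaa

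These sequences were read from GENCODE M21 transcripts, whose build is GRCm38. On that build the hairpin of Hist1h1e, without its flanks, lies at chr13:23621782-23621797 on the minus strand. That of Hist2h2ac lies at chr3:96220418-96220433 on the minus strand, and that of Hist1h4d at chr13:23581950-23581965 on the plus strand. All 3 stand after the stop codon, in the annotated 3′ UTR. The letters searched were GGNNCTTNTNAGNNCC on the transcript strand, with the N positions of both arms complementary. They occur in transcripts of 40 of the 56 members. Over all 21951 protein-coding genes they occur in 56, or 0.255%, of which 46 have such Hist symbols and 10 do not. The form shown for Hist1h1e was in 21 members of H1, H2A, H2B and H3. The form of Hist1h4d was in 7 members, all H4, and that of Hist1h3c in 5 members of H2B and H3. The forms of Hist2h4 and Hist1h4j were in 2 H4 genes each, and the last 3 forms in 1 gene each. Of the 16 members without these letters, 11 have at most 20 nt annotated after the stop codon. The other 5 are Hist2h2be, Hist1h2bq, Hist1h2br, Hist1h2bc and Hist1h1a.

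Depth allowed all 56 members to be tested. Library totals ran from 13127181 to 18614808 counts, of which the 2 most abundant features took the larger part, leaving 4509948 to 6022322 counts in Label_Enrich, 3660109 to 3869477 in NonLabel_Enrich and 1686731 to 2058350 in Label_Input. Levels are CPM, that is counts over a library size corrected by trimmed mean of M values (TMM) factors, and so stand relative to the bulk of tested genes. The scale decides the direction: as a share of all counts, histone members made up 0.280% in Label_Enrich, 0.189% in NonLabel_Enrich and 0.146% in Label_Input. Without the 2 most abundant features their share was 0.883%, 0.717% and 1.19% in the same groups, the order that the TMM scale also gives, and all directions below are on the TMM scale. Many histone genes are near copies: in 27 members fewer than 50% of the 50-base stretches occur in no other annotated gene, and the median by class was 97.7% for H1, 21.1% for H2A, 50.3% for H2B, 42.8% for H3 and 60.5% for H4. How reads with several matches were counted, and on which strand, the sources used here do not give, so values of single core histone genes are uncertain. The line's label was set beside epithelial markers, and these did not bear out an epithelial identity. Epcam was at 0 in all libraries, and 5 of 6 epithelial genes had summed counts under 90. The summed level of the 6 genes was 0.742 to 0.948 CPM in Label_Enrich, 1.03 to 1.24 CPM in NonLabel_Enrich and 1.29 to 1.57 CPM in Label_Input. The mesenchymal genes Vim, Col1a1, Col3a1 and Sparc summed to 1246 to 1282 CPM in Label_Enrich, 1095 to 1118 CPM in NonLabel_Enrich and 1065 to 1095 CPM in Label_Input, and their part in the histone results was not tested.

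Histone mRNAs were lower in both captured groups than in uncaptured RNA, and in captured RNA they were higher with labelling than without it. The summed level of the 56 members was 1861, 1797 and 1726 CPM in Label_Enrich, 1624, 1383 and 1498 CPM in NonLabel_Enrich, and 2838, 2831 and 2962 CPM in Label_Input. No library of one group overlapped another group. Against Label_Input, 44 of 56 members were called lower in Label_Enrich, at an adjusted p under 0.05 in edgeR's quasi-likelihood test, where 28.7% of the 11676 genes tested were called in either direction and 14.6% were called lower. No member was called higher (0 of 56; 0 at an unadjusted p under 0.05 and 0 by DESeq2), where 14.2% of tested genes were. The median log2 fold change of the members was -0.74, beside -0.02 over all tested genes.

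Against NonLabel_Enrich, 31 of 56 members were called higher in Label_Enrich, where 20.1% of tested genes were called and 10.4% were called higher. No member was called lower by edgeR (0 of 56; 0 at an unadjusted p under 0.05 and 0 by DESeq2), where 9.63% of tested genes were. The members' median log2 fold change was 0.28, beside 0.00 over all tested genes. This count fell to 19 members without Label_Enrich replicate 1 and to 20 without NonLabel_Enrich replicate 2. Over all genes, the calls higher also fell, from 1218 of 11676 to 974 of 11846 and 990 of 11967 in these fits. Of the 56 members, 54 had a fold change above 0 and 28 had all 3 Label_Enrich libraries above all 3 NonLabel_Enrich libraries. The matching shares over all tested genes are not given here, so these counts describe the members only.

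In NonLabel_Enrich, 51 of 56 members were called lower than in Label_Input, where 29.5% of tested genes were called and 14.7% were called lower. No member was called higher by edgeR (0 of 56; 0 at an unadjusted p under 0.05 and 0 by DESeq2), where 14.8% of tested genes were. The members' median log2 fold change was -1.01, beside -0.02 over all tested genes. The 3 comparisons share libraries in pairs and are given side by side. NonLabel_Enrich and Label_Input differ in both labelling and capture, which cannot be told apart between them.

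**Figure D1:**
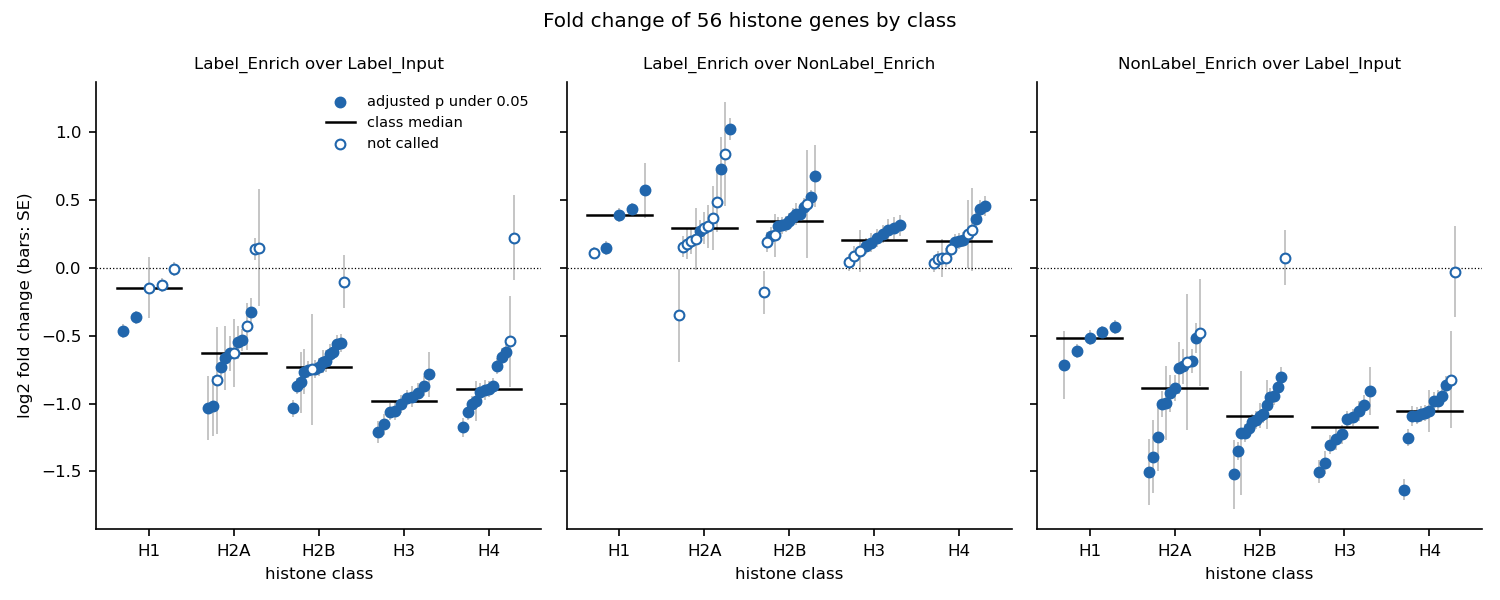
Log2 fold change (y axis, with SE bars) of each of the 56 histone genes by class (x axis) in 3 comparisons, with filled points for adjusted p under 0.05, open points for genes not called and a line at the class median. H1 genes lie nearest to 0 against Label_Input (median -0.15), H3 genes farthest below it (median -0.98), and no gene is called above 0 against Label_Input or below 0 against NonLabel_Enrich.

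The class medians differed, and that of H1 was nearest to the input except with an offset for transcript length. The median log2 fold change of Label_Enrich against Label_Input was -0.15 over the 5 H1 genes, -0.63 over 13 H2A, -0.73 over 15 H2B, -0.98 over 10 H3 and -0.89 over 13 H4 genes. Called lower were 2 of 5 H1, 8 of 13 H2A, 13 of 15 H2B, 10 of 10 H3 and 11 of 13 H4 genes. Over all tested genes 14.6% were called lower there. Among members with at least 50% unique 50-base stretches the class medians were -0.15 for 5 H1, -0.55 for 3 H2A, -0.62 for 8 H2B, -0.95 for 4 H3 and -0.90 for 9 H4 genes. These medians stand in the same order of classes. With the length offset, all class medians moved toward 0, to -0.09 for H1, -0.09 for H2A, -0.26 for H2B, -0.58 for H3 and -0.41 for H4. The H1 median itself was -0.04 with no filter on low counts, -0.27 over the 4 H1 genes with a mean of at least 50 counts and -0.30 in the MC38 3G table, a shallower count of the same libraries. No test of the difference between classes was made.

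Summed by class, H1 was at 528 ± 26.4 CPM in Label_Enrich, 440 ± 29.9 CPM in NonLabel_Enrich and 627 ± 4.29 CPM in Label_Input (SD, n = 3 each). H4 was at 470 ± 21.3, 413 ± 38.6 and 868 ± 36.3 CPM in the same order of groups. H1 was the class with the largest summed level in both captured groups, and H4 in the input, with no correction for length. Coding sequences ran from 636 to 669 nt in H1 and were 309 nt in H4, so these sums do not rank the classes by number of mRNAs. H2B was at 423 ± 9.41 CPM in Label_Enrich, 330 ± 27.2 CPM in NonLabel_Enrich and 696 ± 28.2 CPM in Label_Input. H3 was at 275 ± 10.5, 243 ± 24.7 and 552 ± 9.51 CPM in these groups. H2A, the class with the lowest sum, was at 99.6 ± 6.67 CPM in Label_Enrich, 75.1 ± 2.71 CPM in NonLabel_Enrich and 134 ± 0.838 CPM in Label_Input. Each class had its Label_Enrich libraries below all Label_Input libraries, and above all NonLabel_Enrich libraries except for H3, whose 2 captured groups overlapped.

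The makeup of the histone counts needs no scaling between libraries, and it shifted with the capture. These shares are not corrected for length. The median annotated exon length was 1560 nt in H1, 480 nt in H2A, 618 nt in H2B, 625 nt in H3 and 539 nt in H4, and its part in the shift was not tested. H1 took 29.4%, 29.9% and 28.8% of histone counts in the Label_Enrich libraries, 28.9%, 29.6% and 29.5% in NonLabel_Enrich, and 21.9%, 22.2% and 21.3% in Label_Input. The captured groups overlapped each other, and both lay above the input. H3 took 15.1%, 15.6% and 15.2% in Label_Enrich, 16.4%, 15.7% and 16.5% in NonLabel_Enrich, and 19.4%, 19.2% and 19.0% in Label_Input. Here Label_Enrich lay below NonLabel_Enrich, and both lay below the input. H4 took 26.2 ± 0.341% in Label_Enrich, 27.5 ± 0.476% in NonLabel_Enrich and 30.2 ± 0.545% in Label_Input, in the same order without overlap. H2A took 5.55 ± 0.338%, 5.01 ± 0.241% and 4.66 ± 0.124%, and H2B took 23.6 ± 0.368%, 21.99 ± 0.662% and 24.2 ± 0.430%, in Label_Enrich, NonLabel_Enrich and Label_Input. For every count of H3 there were 1.95, 1.92 and 1.90 counts of H1 in Label_Enrich, 1.77, 1.89 and 1.79 in NonLabel_Enrich, and 1.13, 1.16 and 1.12 in Label_Input.

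**Figure D2:**
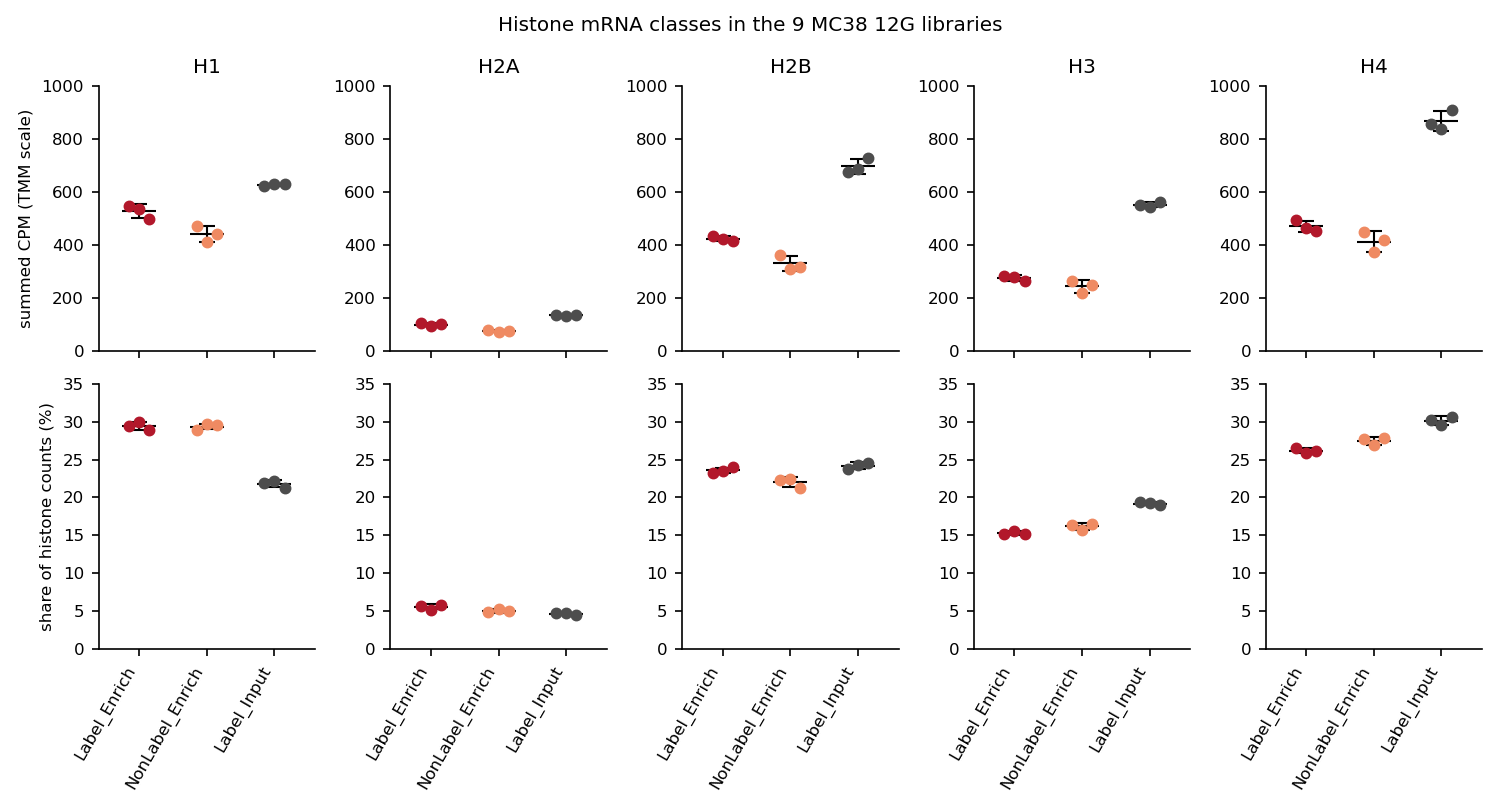
Summed CPM on the TMM scale (upper row) and share of all histone counts in percent (lower row) of the 5 histone classes in each library, with points for libraries and black bars for the mean and SD of 3. The H1 share lies between 28.8% and 29.9% in the captured libraries and between 21.3% and 22.2% in Label_Input, whereas the H3 share is highest in Label_Input.

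Hist1h1e, Hist1h1d, Hist1h1c and Hist1h1b, which encode linker histones, were the 4 most abundant members by counts, whereas the fifth, Hist1h1a, summed to 387 counts. Hist1h1e had 154, 158 and 140 CPM in Label_Enrich, 144, 133 and 142 CPM in NonLabel_Enrich, and 192, 192 and 197 CPM in Label_Input. Its captured groups overlapped and both lay below the input. Its log2 fold change was -0.36 ± 0.05 (SE) for Label_Enrich against Label_Input (adjusted p = 3.10e-09) and 0.11 ± 0.05 against NonLabel_Enrich (adjusted p = 0.0830), the most abundant member not called in that comparison. Hist1h1d had 147, 143 and 138 CPM in Label_Enrich, 116, 98.8 and 104 CPM in NonLabel_Enrich, and 142, 150 and 139 CPM in Label_Input. Label_Enrich and Label_Input overlapped, and NonLabel_Enrich lay below both. Its fold change was -0.01 ± 0.05 against Label_Input (adjusted p = 0.934) and 0.43 ± 0.05 against NonLabel_Enrich (adjusted p = 7.53e-11).

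Hist1h1b followed the same order as Hist1h1d, with 121, 119 and 107 CPM in Label_Enrich, 94.4, 81.8 and 88.8 CPM in NonLabel_Enrich, and 119, 130 and 130 CPM in Label_Input. Label_Enrich stood above NonLabel_Enrich without overlap, by 0.39 ± 0.05, and overlapped Label_Input, at -0.12 ± 0.05 (adjusted p = 0.0657). Hist1h1c averaged 116 ± 7.30 CPM in Label_Enrich, 105 ± 9.22 CPM in NonLabel_Enrich and 160 ± 5.67 CPM in Label_Input. It was called lower against Label_Input, at -0.47 ± 0.05, and higher against NonLabel_Enrich, at 0.15 ± 0.05, although the 2 captured groups overlapped. The call against NonLabel_Enrich was lost without Label_Enrich replicate 1 (0.10), without Label_Enrich replicate 2 (0.15), without NonLabel_Enrich replicate 2 (0.08), with the length offset and in the 3G table, with an adjusted p of up to 0.310 over 16 alternatives. In NonLabel_Enrich all 5 H1 genes were called lower than in Label_Input, where 14.7% of tested genes were. Their log2 fold changes ran from -0.72 to -0.44. With the length offset that call was lost for Hist1h1b, at -0.01 (adjusted p = 0.912, the highest of 16 alternatives, the lowest being 4.57e-16). With the same offset Hist1h1b was called higher in Label_Enrich than in Label_Input, at 0.29 (adjusted p = 7.58e-07, with adjusted p from 7.58e-07 to 0.878 over 16 alternatives).

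H2A was the class with the lowest summed level, and its fold changes against NonLabel_Enrich ran over the widest range of the 5 classes. H2A and H2B pair into a dimer before they join the core. Hist2h2ac, of the small cluster on chromosome 3, had 27.6, 26.04 and 25.4 CPM in Label_Enrich, 14.5, 10.8 and 13.7 CPM in NonLabel_Enrich, and 21.4, 28.0 and 23.0 CPM in Label_Input. All Label_Enrich libraries stood above all NonLabel_Enrich libraries, and they overlapped Label_Input. Its log2 fold change of 1.02 ± 0.08 against NonLabel_Enrich (adjusted p = 2.30e-17) was the largest of the 56 members in that comparison. Against Label_Input it was 0.14 ± 0.08 (adjusted p = 0.222). That value was called higher in 3 of 16 alternatives, at 0.25 without Label_Input replicate 2 (adjusted p = 0.0356), at 0.24 with no filter on low counts (adjusted p = 0.0226) and at 0.64 with a length offset (adjusted p = 3.57e-11). Over the 16 alternatives its adjusted p ran from 3.57e-11 to 0.705. Its hairpin, shown above, was found in no other member, and 61.4% of its 50-base stretches were unique.

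The other abundant H2A genes did not share that pattern. Hist1h2ak averaged 15.8 ± 0.455 CPM in Label_Enrich, 14.1 ± 1.27 CPM in NonLabel_Enrich and 22.9 ± 0.887 CPM in Label_Input, and Hist1h2ab averaged 14.2 ± 1.48, 11.8 ± 1.15 and 23.6 ± 0.768 CPM. Both were called lower against Label_Input, at -0.53 ± 0.08 and -0.73 ± 0.09. Against NonLabel_Enrich Hist1h2ak was at 0.16 ± 0.08 and not called, and Hist1h2ab was called higher at 0.27 ± 0.08. Hist1h2ai, with 9.88% unique stretches, was at -0.32 ± 0.10 against Label_Input (adjusted p = 0.0122) and at 0.19 ± 0.09 against NonLabel_Enrich, which was not called. Under the length offset Hist1h2ak and Hist1h2ai came out above 0 against Label_Input, and Hist1h2ab was at -0.20 and no longer called (adjusted p up to 0.0809 over 16 alternatives). The call of Hist1h2ai against Label_Input was also lost without Label_Enrich replicate 2 (-0.23), without Label_Input replicate 1 (-0.23), by DESeq2, with no low-count filter and in the 3G table. The call of Hist1h2ab against NonLabel_Enrich was lost with the length offset and without Label_Enrich replicate 1 (0.23), Label_Enrich replicate 3 (0.23) or NonLabel_Enrich replicate 3 (0.19).

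Of the rarer H2A genes, Hist1h2an had 2.09, 2.31 and 1.99 CPM in Label_Enrich, 1.14, 1.35 and 1.36 CPM in NonLabel_Enrich, and 3.49, 2.29 and 4.21 CPM in Label_Input. It stood above NonLabel_Enrich without overlap, by 0.73 ± 0.24 (adjusted p = 0.0211). That call was lost without Label_Enrich replicate 1 (0.74), Label_Enrich replicate 2 (0.67) or NonLabel_Enrich replicate 1 (0.65), with the length offset and in the 3G table, with an adjusted p of up to 0.181 over 15 alternatives. In the class as a whole 3 of 13 genes were called higher against NonLabel_Enrich, where 10.4% of tested genes were. Called lower in NonLabel_Enrich than in Label_Input were 11 of 13, where 14.7% of tested genes were. The range of fold changes against NonLabel_Enrich ran from -0.35 for Hist1h2ao, which was not called, to the value of Hist2h2ac.

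Of the H2B genes, 11 of 15 were called higher against NonLabel_Enrich and 13 of 15 were called lower against Label_Input. Over all tested genes these shares were 10.4% and 14.6%. Hist1h2bb, the most abundant, had 66.6, 64.0 and 61.3 CPM in Label_Enrich, 48.7, 41.1 and 44.2 CPM in NonLabel_Enrich, and 92.1, 102 and 101 CPM in Label_Input. The 3 groups did not overlap. Its log2 fold change was -0.62 ± 0.06 against Label_Input (adjusted p = 1.67e-14) and 0.52 ± 0.06 against NonLabel_Enrich (adjusted p = 2.47e-11). With the length offset the value against Label_Input was -0.11 and not called (adjusted p = 0.138, the highest of 16 alternatives, the lowest being 3.23e-21). Hist1h2bn, Hist1h2bj and Hist1h2be stood at -1.03, -0.75 and -0.74 against Label_Input and at 0.31, 0.33 and 0.38 against NonLabel_Enrich, and all 6 values were called. Hist1h2bp, a rare member, had 2.49, 2.39 and 1.76 CPM in Label_Enrich, 1.31, 1.18 and 1.68 CPM in NonLabel_Enrich, and 3.73, 3.86 and 4.45 CPM in Label_Input. Its groups did not overlap, and its fold change of -1.52 ± 0.25 for NonLabel_Enrich against Label_Input was the second lowest of all members.

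Among the 15 H2B genes, Hist2h2be alone had a fold change below 0 against NonLabel_Enrich and above 0 in NonLabel_Enrich against Label_Input. In mice its protein is known from olfactory sensory neurons, where it is made outside S phase. It had 3.51, 3.61 and 3.43 CPM in Label_Enrich, 4.06, 3.77 and 4.12 CPM in NonLabel_Enrich, and 3.13, 4.58 and 3.74 CPM in Label_Input. Label_Enrich lay below NonLabel_Enrich in every library, and Label_Input overlapped both. The log2 fold changes were -0.10 ± 0.20 for Label_Enrich against Label_Input, -0.18 ± 0.16 against NonLabel_Enrich, and 0.08 ± 0.20 for NonLabel_Enrich against Label_Input, and none was called. All of its 50-base stretches were unique, and its transcript holds none of the hairpin letters searched.

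H3 and H4 form the innermost part of the core. All 10 H3 genes were called lower in Label_Enrich than in Label_Input, where 14.6% of tested genes were. Hist1h3c, the most abundant, had 59.5, 58.0 and 52.9 CPM in Label_Enrich, 56.1, 46.3 and 50.3 CPM in NonLabel_Enrich, and 109, 113 and 109 CPM in Label_Input. The captured groups overlapped and lay far below the input. Its log2 fold change was -0.96 ± 0.06 against Label_Input (adjusted p = 7.26e-23) and 0.16 ± 0.06 against NonLabel_Enrich (adjusted p = 0.0338). Hist1h3e, Hist1h3f and Hist1h3i were at -1.06, -1.05 and -1.003 against Label_Input, all called. Against NonLabel_Enrich they were at 0.04, 0.25 and 0.22, of which the last 2 were called higher. These calls against NonLabel_Enrich were lost in some fits that left out a library. That of Hist1h3c was lost without Label_Enrich replicate 1 (0.13) or 2 (0.15) and without NonLabel_Enrich replicate 2 (0.10) or 3 (0.15), and that of Hist1h3i without Label_Enrich replicate 1 (0.18) or 2 (0.20) and without NonLabel_Enrich replicate 2 (0.14). Both were lost with the length offset, and that of Hist1h3c also in the 3G table and with only the 2 groups fitted. That of Hist1h3f was lost without Label_Enrich replicate 2 (0.20). Hist1h3b had 15.0, 16.02 and 14.6 CPM in Label_Enrich, 14.1, 10.3 and 12.9 CPM in NonLabel_Enrich, and 33.9, 33.7 and 37.7 CPM in Label_Input. Its 3 groups did not overlap, and its value of -1.21 ± 0.08 against Label_Input (adjusted p = 1.10e-20) was the lowest of the 56 members.

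H4 genes, which encode the same protein from many copies, were called lower against Label_Input in 11 of 13 cases, where 14.6% of tested genes were. Hist1h4d, the most abundant core histone gene, had 98.6, 91.8 and 90.8 CPM in Label_Enrich, 91.2, 72.3 and 80.1 CPM in NonLabel_Enrich, and 165, 161 and 186 CPM in Label_Input. Its log2 fold change was -0.87 ± 0.06 against Label_Input (adjusted p = 1.81e-21) and 0.21 ± 0.05 against NonLabel_Enrich (adjusted p = 0.00338), where the libraries overlapped. Per kb of coding sequence, the level of Hist1h4d was 303 CPM in Label_Enrich, 263 CPM in NonLabel_Enrich and 553 CPM in Label_Input, beside 229, 212 and 295 CPM per kb for Hist1h1e. On this per kb scale the most abundant linker and core genes stood nearer each other in captured RNA than in the input. Without the division by coding length they stood farther apart there. Mean levels were then 151, 140 and 194 CPM for Hist1h1e and 93.7, 81.2 and 171 CPM for Hist1h4d in the same order of groups. Hist1h4h and Hist1h4k were at -0.89 and -0.72 against Label_Input, both called, and at 0.20 and 0.14 against NonLabel_Enrich, of which the first was called. With the length offset Hist1h4k was at -0.07 against Label_Input and not called (adjusted p = 0.371, the highest of 16 alternatives, the lowest being 2.65e-26). Against NonLabel_Enrich the call of Hist1h4d was lost without Label_Enrich replicate 1 (0.17) or NonLabel_Enrich replicate 2 (0.13) and by DESeq2. That of Hist1h4h was lost without Label_Enrich replicate 1 (0.14) or NonLabel_Enrich replicate 2 (0.15), with the length offset and in the 3G table.

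Among the other H4 genes, Hist1h4n had 29.7, 31.6 and 30.1 CPM in Label_Enrich, 24.4, 17.3 and 24.7 CPM in NonLabel_Enrich, and 69.0, 67.8 and 69.4 CPM in Label_Input. Its groups did not overlap, and its fold change of -1.63 ± 0.08 for NonLabel_Enrich against Label_Input was the lowest of all members in that comparison. Hist4h4, the lone member on chromosome 6, had 22.8, 22.6 and 21.04 CPM in Label_Enrich, 17.6, 16.2 and 15.6 CPM in NonLabel_Enrich, and 34.99, 34.7 and 35.3 CPM in Label_Input. It moved in the direction of the main cluster, at -0.66 ± 0.07 against Label_Input and 0.43 ± 0.07 against NonLabel_Enrich, both called. Hist2h4, on chromosome 3, averaged 50.7 ± 4.06 CPM in Label_Enrich, 48.5 ± 4.17 CPM in NonLabel_Enrich and 102 ± 3.17 CPM in Label_Input. It was called lower against Label_Input at -1.003 ± 0.06, and was at 0.06 ± 0.06 against NonLabel_Enrich, which was not called.

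**Figure D3:**
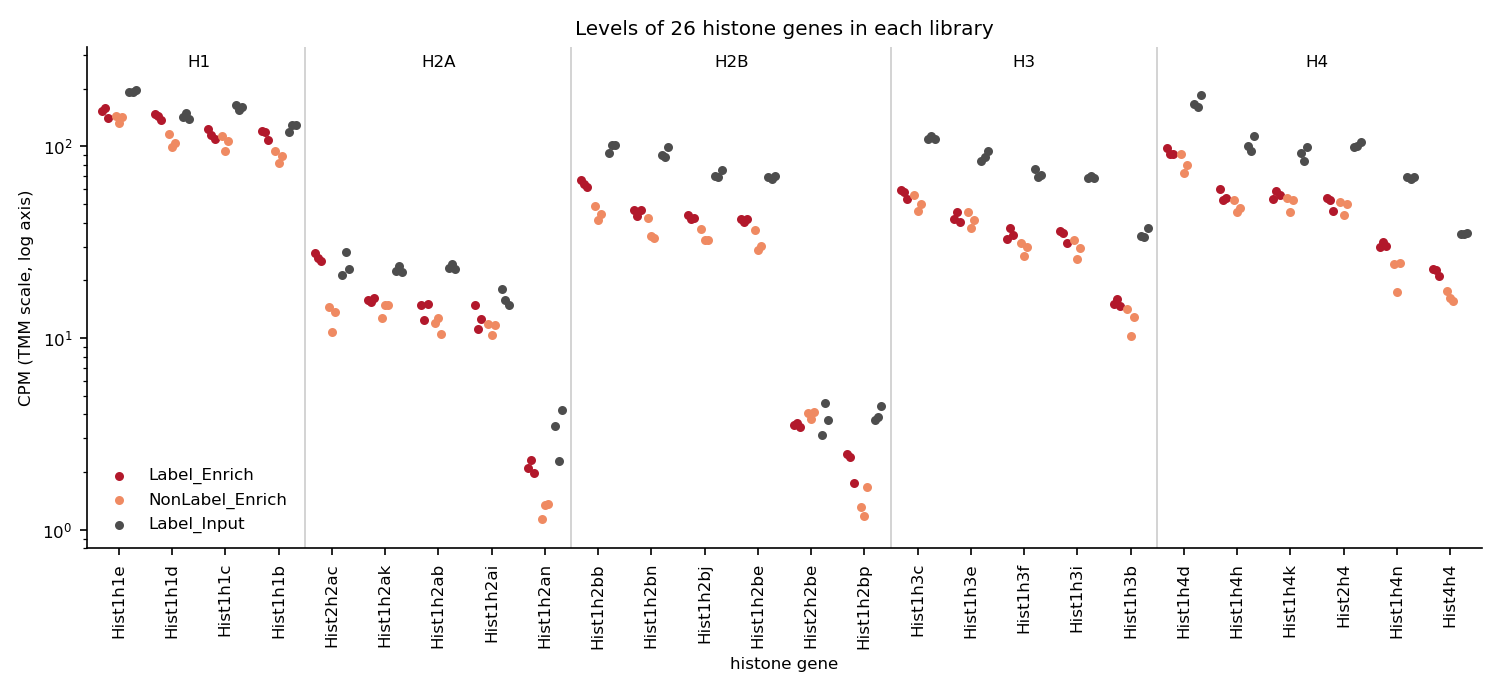
CPM on the TMM scale (log y axis) of 26 histone genes (x axis, grouped by class) in each of the 9 libraries, with 1 point a library. Label_Input is the highest group for most core histone genes, such as Hist1h3b with 33.7 to 37.7 CPM, whereas Label_Enrich reaches the input level for Hist1h1d and Hist2h2ac.

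Members were also set side by side by their annotated 3′ end. Of 19 members whose annotation runs more than 100 nt past the hairpin, 18 were called lower against Label_Input, with a median of -0.78. Of 21 with up to 100 nt past it, 16 were called lower (median -0.83), and of 16 with no such letters, 10 were (median -0.65). Against NonLabel_Enrich, 11 of 19, 13 of 21 and 7 of 16 were called higher, with medians of 0.21, 0.28 and 0.27. No test of the difference between these sets was made. By cluster, 41 of 51 Hist1h and 2 of 4 Hist2h members were called lower against Label_Input, and 29 of 51 and 1 of 4 were called higher against NonLabel_Enrich. Over all tested genes, 14.6% were called lower against Label_Input and 10.4% were called higher against NonLabel_Enrich.

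Histone mRNAs are short, and in these data short transcripts in general were lower after capture. Across the 11531 tested genes with an annotated length, Spearman's rho between length and the log2 fold change was 0.30 for Label_Enrich against Label_Input, -0.04 for Label_Enrich against NonLabel_Enrich and 0.32 for NonLabel_Enrich against Label_Input, where genes are not independent replicates. Against Label_Input, the 22 members of up to 500 nt had a median log2 fold change of -0.73 in Label_Enrich, close to -0.66 over 214 other genes of that length. From over 500 to 1000 nt the medians were -0.87 for 18 members and -0.43 for 367 other genes, and from over 1000 to 2000 nt they were -0.78 for 9 members and -0.23 for 1161 other genes. From over 2000 to 4000 nt they were -0.66 for 5 members and -0.07 for 3306 other genes, and over 4000 nt they were -0.38 for 2 members and 0.06 for 6427 other genes. In NonLabel_Enrich against Label_Input the members' medians in these length classes lay between -1.08 and -0.78, and those of the other genes went up with length, from -0.86 to 0.07. These annotated lengths include exon sequence past the hairpin, so a mature histone mRNA can be shorter than its annotation.

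Against NonLabel_Enrich the medians moved little with length: those of the members were 0.28, 0.29, 0.21, 0.29 and 0.40 in these 5 length classes, and those of the other genes were -0.03, 0.08, 0.04, 0.00 and -0.01. With a length offset in the fit, 31 members were called lower and 4 higher in Label_Enrich against Label_Input, 19 were called higher against NonLabel_Enrich, and 40 were called lower in NonLabel_Enrich against Label_Input. The 4 called higher were Hist1h1b, Hist1h2ai, Hist1h4b and Hist2h2ac. Of the 11531 genes in that fit, 1463 were called lower and 1514 higher in Label_Enrich against Label_Input. Called higher against NonLabel_Enrich were 1216 of them, and 1420 were called lower in NonLabel_Enrich against Label_Input. Among H1 genes, Hist1h1b is annotated at 743 nt and Hist1h1d at 7425 nt, the latter with 4884 nt past the hairpin. In both, the Label_Enrich libraries overlapped Label_Input. In Hist1h1c and Hist1h1e, annotated at 1560 and 1930 nt, all Label_Enrich libraries lay below Label_Input. The part of length in these H1 values was not tested.

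**Figure D4:**
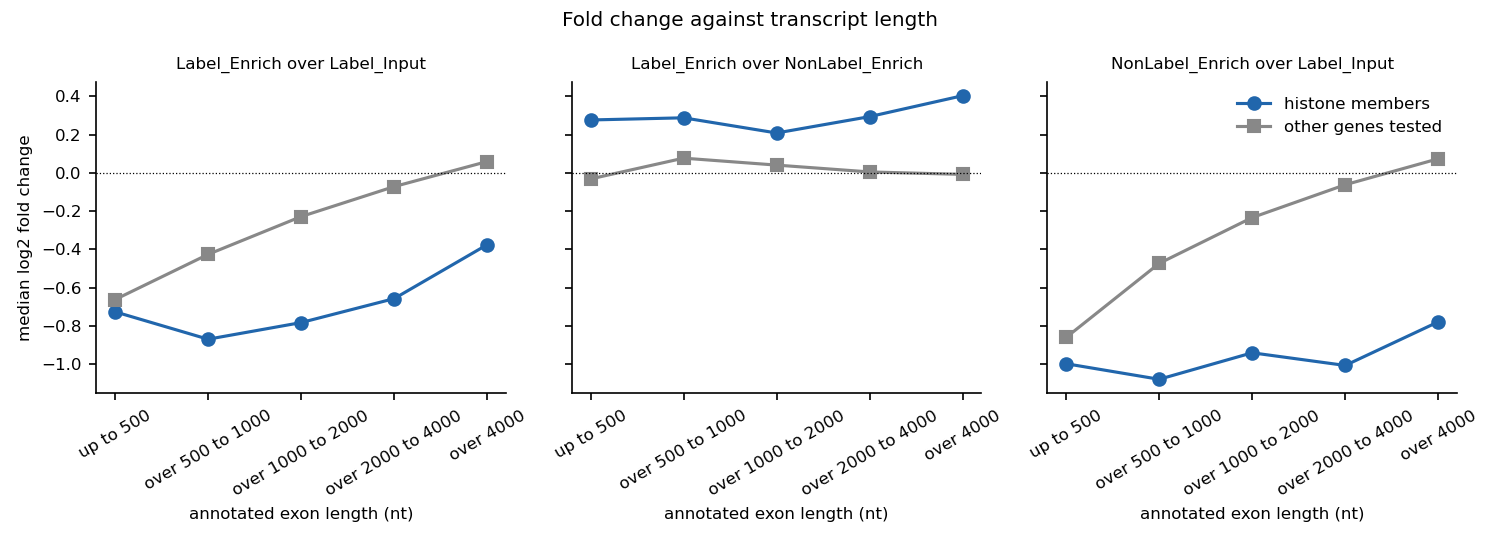
Median log2 fold change (y axis) of histone members and of the other genes tested, by annotated exon length in nt (x axis), in 3 comparisons. Against Label_Input the members' medians lie below those of the other genes in each of the 5 length classes, between -0.87 and -0.38 in Label_Enrich and between -1.08 and -0.78 in NonLabel_Enrich, and the class over 4000 nt holds only 2 members. Label_Enrich against NonLabel_Enrich has the members above the other genes in each class.

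The counts called in the 4 lists of related genes that follow are to be read beside the background over all tested genes given above, which was 28.7%, 20.1% and 29.5% called in either direction for Label_Enrich against Label_Input, Label_Enrich against NonLabel_Enrich and NonLabel_Enrich against Label_Input. Variant histones are made throughout the cell cycle from genes outside the clusters, mostly with polyadenylated mRNAs. Of 11 such genes, 5 were called lower and 1 higher in Label_Enrich against Label_Input (median -0.18), 1 was called higher against NonLabel_Enrich (median 0.02), and 4 were called lower in NonLabel_Enrich against Label_Input (median -0.15). H3f3a and H3f3b, which encode the replacement histone H3.3, had the smallest p. H3f3a averaged 37.3 ± 1.25 CPM in Label_Enrich, 32.5 ± 1.33 CPM in NonLabel_Enrich and 55.6 ± 1.16 CPM in Label_Input, at -0.58 ± 0.06 against Label_Input and 0.20 ± 0.06 against NonLabel_Enrich, both called. H3f3b was called lower against Label_Input at -0.30 ± 0.05. H1f0, a linker histone of slowly dividing cells and the most abundant variant gene not called, averaged 106 ± 2.61, 104 ± 2.51 and 112 ± 5.12 CPM in these groups, at -0.09 ± 0.05 against Label_Input. H2afx, whose transcript also holds the hairpin letters, was called lower against Label_Input at -0.26 ± 0.07 and was at 0.08 ± 0.06 against NonLabel_Enrich.

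Genes for making and using histone mRNAs were spread on both sides of 0. Of 19 tested factors of histone mRNA 3′ end processing and decay, 4 were called higher and 1 lower in Label_Enrich against Label_Input (median 0.04), a share near the 28.7% over all tested genes, 1 was called higher against NonLabel_Enrich (median 0.05), where 20.1% were called, and 3 were called higher and 2 lower in NonLabel_Enrich against Label_Input (median -0.02). Srrt, which links the RNA cap to 3′ end processing, and Upf1, a helicase of RNA decay, were called higher against Label_Input at 0.59 ± 0.07 and 0.49 ± 0.07. Slbp averaged 18.9 ± 0.567 CPM in Label_Enrich, 18.6 ± 0.443 CPM in NonLabel_Enrich and 20.6 ± 2.77 CPM in Label_Input, and was called in no comparison. Eri1, the exonuclease that trims the histone mRNA end and the most abundant factor not called against Label_Input, was at 0.13 ± 0.07 there. Sympk, a scaffold of the cleavage complex, was the factor called higher against NonLabel_Enrich, at 0.17 ± 0.05. Of 16 histone chaperones, 6 were called higher and 3 lower against Label_Input (median 0.03), 4 higher and 2 lower against NonLabel_Enrich (median -0.08), and 5 higher and 4 lower in NonLabel_Enrich against Label_Input (median 0.05). Nap1l4, a chaperone of H2A and H2B, and Supt16, a subunit of the FACT complex, were called higher against Label_Input at 0.41 ± 0.07 and 0.37 ± 0.07, and the abundant Npm1 was at 0.03 ± 0.04 there. Against NonLabel_Enrich, Nasp, which keeps a reserve of H3 and H4, was called higher at 0.36 ± 0.06, and Ubn1, of the complex that deposits H3.3, was called lower at -0.37 ± 0.06.

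S phase genes, whose expression accompanies that of histones in dividing cells, were called in both directions. Of 26, 7 were called higher and 3 lower in Label_Enrich against Label_Input (median 0.09), where 28.7% of all tested genes were called, 3 higher and 1 lower against NonLabel_Enrich (median 0.03), where 20.1% were, and 6 higher and 4 lower in NonLabel_Enrich against Label_Input (median 0.08). Their summed level was 1293 to 1308 CPM in Label_Enrich, 1270 to 1293 CPM in NonLabel_Enrich and 1190 to 1217 CPM in Label_Input. Uhrf1, which reads DNA methylation at the replication fork, averaged 147 ± 3.44 CPM in Label_Enrich, 145 ± 1.03 CPM in NonLabel_Enrich and 113 ± 3.97 CPM in Label_Input and was called higher against Label_Input at 0.37 ± 0.05. Lig1, the DNA ligase of replication, was called higher there at 0.41 ± 0.06. Rrm1, the most abundant of these genes not called there, was at 0.12 ± 0.05. Against NonLabel_Enrich, Pola1, a subunit of the polymerase that starts DNA synthesis, was called higher at 0.31 ± 0.06, and the transcription factor E2f1 was called lower at -0.25 ± 0.06.

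**Figure D5:**
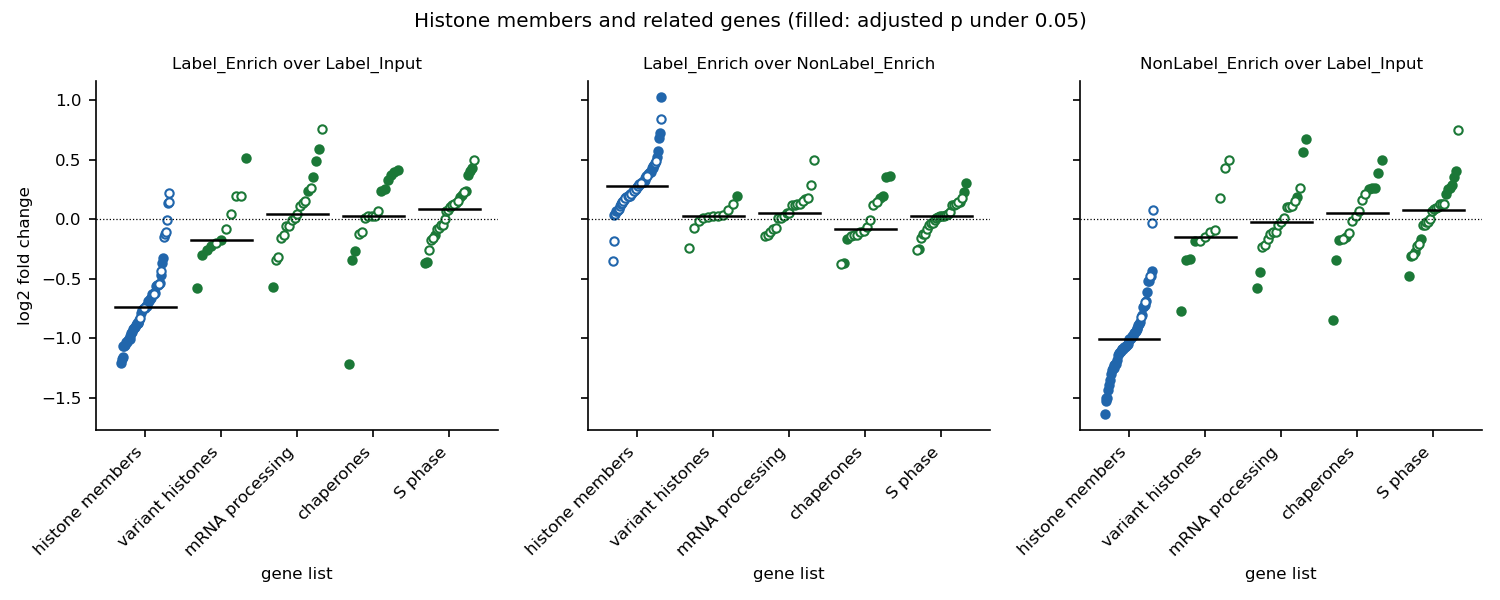
Log2 fold change (y axis) of the 56 histone members and of 4 lists of related genes (x axis) in 3 comparisons, with filled points for adjusted p under 0.05, open points for genes not called and lines at medians. The members' medians are -0.74, 0.28 and -1.01 from left to right, and those of variant histones -0.18, 0.02 and -0.15.

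The 14 histone genes under the threshold were not described further. Just inside it were Hist1h2br with 96 counts, Hist1h2ap with 125 and Hist1h2ao with 128, of which Hist1h2br alone was called, lower in NonLabel_Enrich than in Label_Input at -1.22 ± 0.45. Just outside it were Hist1h2aj with 47 counts, Hist2h2ab with 33 and Hist1h2ba with 32. Hist2h2aa1, Hist2h2aa2, Hist2h2bb, Hist2h3b, Hist2h3c1 and Hist3h2bb-ps were listed at 0 in all 9 libraries. Of their 50-base stretches, 0% were unique in Hist2h2aa2 and Hist2h3c1, 10.6% in Hist2h2aa1 and 20.3% in Hist2h3b. The share was 46.4% in Hist2h2bb and 70.0% in Hist3h2bb-ps. Since the counting of reads with several matches is not given, a 0 in such near copies cannot be read as absence of the mRNA.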

How the data were processed

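The authors deposited unnormalized read counts, 1 row per Ensembl gene, for the 9 MC38 12G libraries. The submitters' processing notes name HISAT2 2.1.0, cutadapt 1.18, DESeq2 1.16.1, HTSeq 0.7.2 and the mouse build GRCm39. Per the labels' protocols, libraries were made from total RNA with the NEBNext Ultra II RNA kit. Names, lengths and hairpins came from GENCODE M21 (GRCm38), which named 52073 of 56691 features. The 9 libraries were fitted together by group in edgeR 4.0.16 (R 4.3.3), with TMM factors and filterByExpr, and tested with its 2-sided quasi-likelihood test. P-values were adjusted by Benjamini-Hochberg over 11676 genes. The SE is the absolute log2 fold change over the square root of F. The procedure was tested on simulated data.

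Named members were the 4 of each class with the most counts, the 2 called with the largest change per direction and comparison, the most abundant not called per comparison, and those of Hist3h and Hist4h. In related lists they were the 2 called with the smallest p and the most abundant not called. Genes named beyond this, such as Slbp, H2afx and Hist1h2ao, were chosen after their values were seen. The members and lists were chosen with earlier results of these data known. MC38 3G, a shallower count of the same libraries (67.8% to 68.9% of the totals), served as an alternative, beside DESeq2 1.42.0, other factors, filters, a length offset, a replicate block and leaving out each library. The 9 HEK293T columns were not used. The groups share replicate numbers, which were not used to pair libraries.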

Additional observations from a re-analysis of the deposited data

How the results depend on the processing

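Of the counts of members, these moved by over 1.5 times. Called higher in Label_Enrich against Label_Input were 1 member with no low-count filter, 4 with the length offset, and 0 to 1 leaving out each library in turn, against 0 as reported. Called higher against NonLabel_Enrich were 19 with the length offset and 19 to 31 leaving out each library in turn, against 31 as reported. Each count not listed here stayed within 1.5 times, and with the replicate block 45 members were called lower and 31 higher in the first 2 comparisons, and 51 lower in NonLabel_Enrich against Label_Input. Deviations of same-numbered libraries from their group means correlated at -0.01 to 0.02, and not every library correlated best with its own number, so the numbers were not taken to pair the libraries. DESeq2 called 42 lower, 29 higher and 50 lower in the same comparisons. Over all genes it tested, DESeq2 called 1408 of 14538 lower, 1051 of 9793 higher and 1406 of 12956 lower there. With the replicate block, 1694 lower, 1244 higher and 1702 lower were called over 11676 genes. The length offset reversed 5 values: Hist1h1b at 0.29, Hist1h2ak at 0.052 and Hist1h2ai at 0.26 for Label_Enrich against Label_Input, and Hist1h2ak at 0.038 and Hist1h2ai at 0.21 for NonLabel_Enrich against Label_Input; the cause was not tested. No other setting reversed a called value of a named member. For NonLabel_Enrich against Label_Input the offset also brought the class medians to -0.28 for H1, -0.26 for H2A, -0.52 for H2B, -0.60 for H3 and -0.49 for H4, and ended the call of Hist1h4k. With no low-count filter the calls over all genes were 2228 higher and 1177 lower in Label_Enrich against Label_Input, beside 1654 and 1700 as reported. Depth limits the rarest members: Hist1h2ap, with 125 counts, was at 0.84 ± 0.38 against NonLabel_Enrich and not called, although Hist1h2br, with 96, was called lower in NonLabel_Enrich than in Label_Input.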
